A study of Homo sapiens with 2 samples.

Results

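TRF2 peaks in 7 long human genes were described: LRRC4C, SEMA5A, ROBO2, ASTN2, CDH13, SOX5 and SGCZ. A peak was counted in a gene when its summit, the base of highest signal, lay inside the gene's span, and 27 of the 24258 deposited peaks met that rule. The data came from chromatin immunoprecipitation and sequencing of HCT116 cells, a human colorectal carcinoma line, with an antibody to TRF2. There was 1 immunoprecipitated (IP) library and 1 input library, which is fixed and sonicated chromatin without antibody, and the peaks are those of the IP over the input. The name of the peak list mentions a control siRNA, but no siRNA is given in the labels, so a transfection is possible and not settled. Both groups had a single library, so samples could not be compared by a test, and intervals cover counting error only. The 7 genes were chosen by the fold and q-value of these same peaks. Their number, fold and depth are therefore a description, and no test was made on them.

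TRF2, part of the shelterin complex, attaches to the TTAGGG repeats of telomeres and shields chromosome ends from the DNA damage response. It has also been found at sites away from telomeres, including TTAGGG-like repeats inside chromosomes. The genes here are mostly known from the nervous system, where cell surface proteins steer growing axons and hold synapses together, and they span very long introns. They are not markers of the colon epithelium, and gene expression was not measured in these libraries. The label "neuronal" is loose for some of them: CDH13 also acts in blood vessels, SOX5 in cartilage, and SGCZ belongs to a membrane complex best known from muscle.

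The gene table used here gives spans without exons, and the genome sequence under the peaks was not analysed here, so no peak was assigned to an exon or an intron. RefSeq promoter windows of GRCh38.p14, 250 bases before to 50 bases after a start, were at hand for 4 of the 7 genes and 7 starts: 3 of ASTN2, 2 of ROBO2 and 1 each of SEMA5A and SOX5. The telomere unit was searched on both strands as TTAGGG or CCCTAA, which do not overlap each other. It was found in 1 of the 7 windows, the upstream ASTN2 start, and in 9.05% of all 35116 windows. A tandem pair of units was in 2 of all windows and in none of these 7. The upstream sequences of a pair of starts are shown: the window with the match and the window nearest to a summit. The ASTN2 window holds the match, in capitals, and its nearest summit was 369 kb away. The ROBO2 window holds none and, of the 7 listed starts, belongs to the one nearest to a summit, at 11.0 kb. LRRC4C, CDH13 and SGCZ have no listed start, so no such distance is given for them. Both are 250 bases long and read 5′ to 3′ on the gene's strand, chr9:117415058-117415307 on the minus strand and chr3:77039849-77040098 on the plus strand.
ASTN2: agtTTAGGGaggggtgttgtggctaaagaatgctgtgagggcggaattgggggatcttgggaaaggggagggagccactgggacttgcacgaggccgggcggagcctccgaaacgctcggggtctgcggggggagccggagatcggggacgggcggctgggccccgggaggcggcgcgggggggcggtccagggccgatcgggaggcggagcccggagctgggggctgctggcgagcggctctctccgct
ROBO2: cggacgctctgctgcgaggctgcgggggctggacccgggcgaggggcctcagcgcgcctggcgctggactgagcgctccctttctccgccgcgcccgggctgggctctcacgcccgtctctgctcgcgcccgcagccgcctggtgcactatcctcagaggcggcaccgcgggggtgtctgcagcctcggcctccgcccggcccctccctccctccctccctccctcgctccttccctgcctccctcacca

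The summits lay inside the genes and away from their ends. None of the 27 was within 3 kb of a gene end, a zone that makes up only 0.528% of the 7 spans, and the smallest distance to an end was 41.9 kb, in ROBO2. All 7 genes held a summit, and all 7 held at least 1 strong summit, defined as a −log10 q of 5 or more (q is the authors' p-value adjusted for multiple testing). Among the 756 protein-coding genes of 300 kb or more on chromosome arms, 38.6% held a summit and 5.16% a strong summit; among all 19241 protein-coding arm genes the shares were 4.43% and 0.473%. These shares were printed for scale only, because the strong peaks chose the 7 genes. The arms leave out centromere bands with 2 Mb around them, and heterochromatin and stalk bands. There were 8 strong summits and 19 others in the genes, and over all 3378 arm summits 12% were strong.

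**Figure D1:**
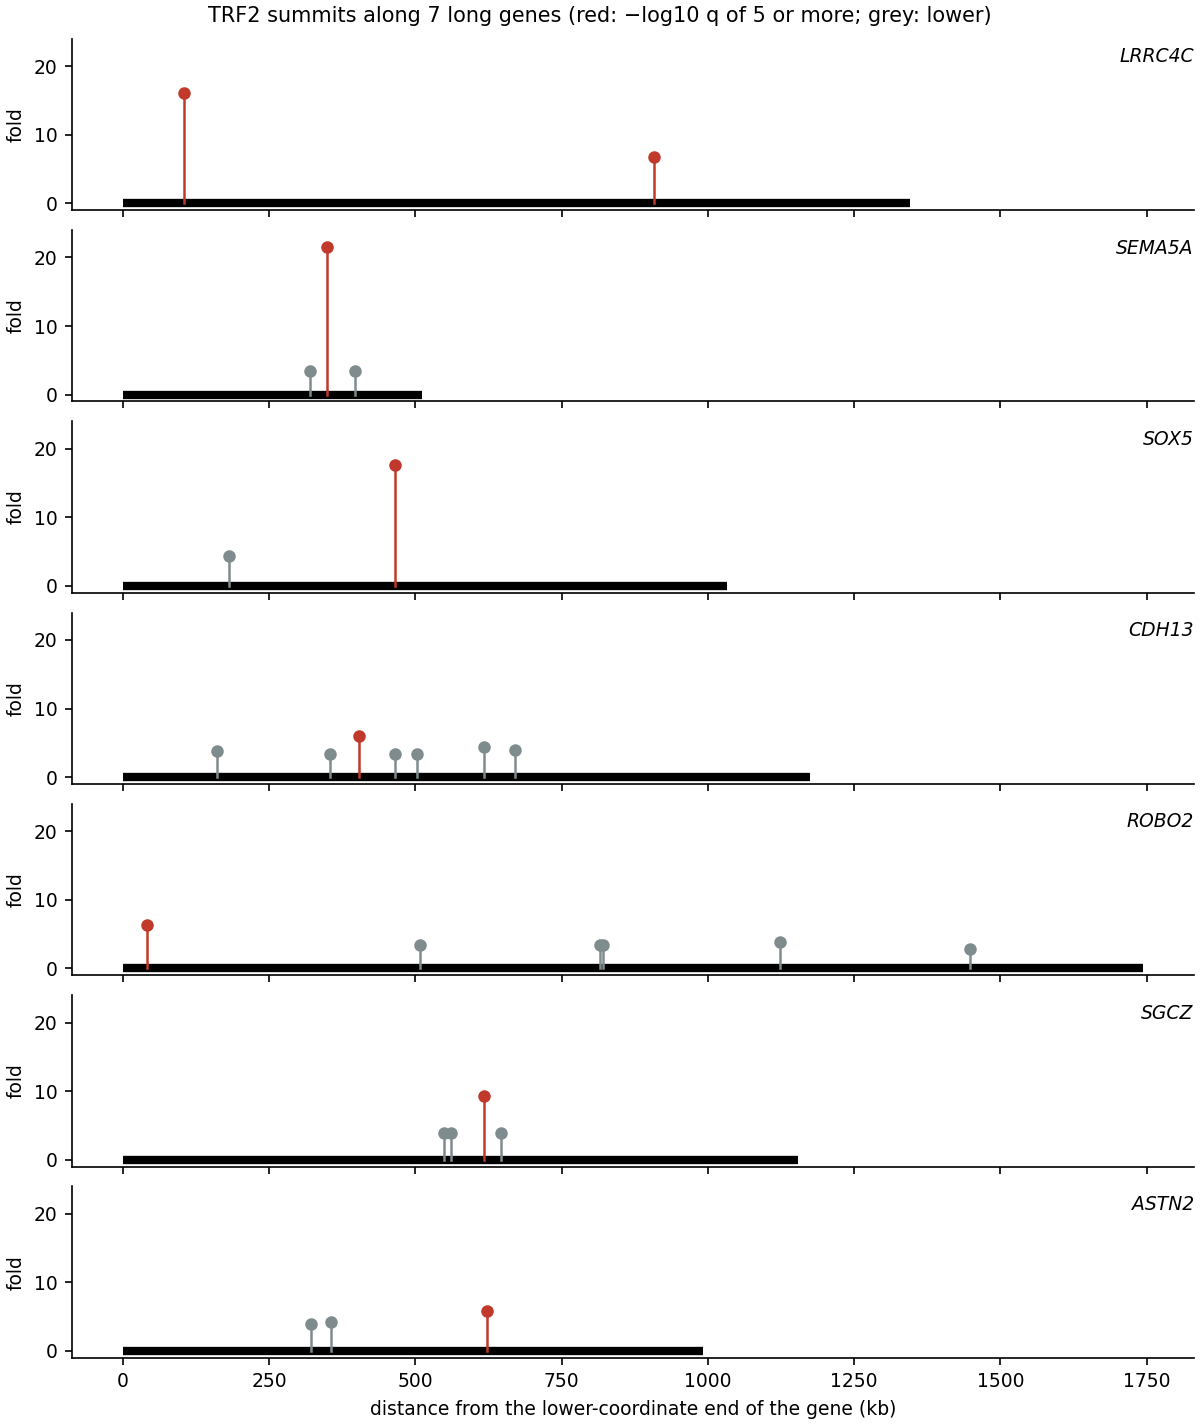
Position and fold over input of the 27 TRF2 summits in the 7 genes. The x axis is the distance in kb from the end of the gene with the lower coordinate, black bars are gene spans, and stems are summits (red, strong; grey, others). LRRC4C has 2 strong summits 802.6 kb apart, and the other 6 genes have 1 each.

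The tallest peaks were in a semaphorin gene, a netrin-G ligand gene and a transcription factor gene. SEMA5A encodes a transmembrane semaphorin that guides axons. Its strong peak, on chromosome 5 from 9384536 to 9384660, was 125 bp wide and had 43 IP reads at the summit (exact Poisson 95% interval 31.1 to 57.9) over an input background of 1.05. Its fold of 21.5 ranked 3 of the 3378 arm summits. The summit was 350 kb from the lower and 161 kb from the upper end of the gene, which is 511 kb long (9035033 to 9546075, minus strand). It lay between 2 summits of 6 reads each and fold 3.41, which were 30.6 kb and 47.5 kb away. The strong SEMA5A interval did not overlap those of its neighbours (2.20 to 13.1 reads each). The reads helped to define which summits are strong, so overlaps of intervals, here and below, describe counting error and are not a test.

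LRRC4C encodes a postsynaptic leucine-rich repeat protein that binds netrin-G1 on axons. It carried 2 strong summits and no other, within a span of 1345 kb on chromosome 11 (40114199 to 41459652). The peak from 40218565 to 40218653 had 32 reads (interval 21.9 to 45.2) and a fold of 16.1, which ranked 12 among arm summits. It lay 104 kb from the lower end of the gene, at 7.76% of its span. The peak from 41021135 to 41021227, at 67.4% of the span, had 13 reads (6.92 to 22.2) and a fold of 6.83. The intervals of these 2 peaks, 89 and 93 bp wide, overlapped slightly.

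SOX5 encodes a transcription factor of the SOXD group, with roles in cartilage and in cortical neurons. The gene spans 1033 kb of chromosome 12 (23529504 to 24562650, minus strand). Its strong peak from 23993848 to 23993946 was 99 bp wide and had 35 reads (24.4 to 48.7) and a fold of 17.6, rank 7 among arm summits. It lay near the middle of the gene, at 44.9% of the span. The only other SOX5 summit, 283 kb away, had 8 reads and a fold of 4.39.

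The strong peaks of the other 4 genes were lower. SGCZ encodes zeta-sarcoglycan, a membrane protein of the dystrophin-associated complex. Its peak on chromosome 8 from 14702809 to 14702886 had 18 reads (10.7 to 28.4) and a fold of 9.27. The gene spans 1154 kb (14084845 to 15238431), but its 4 summits fell within 97.8 kb near its middle, from 47.6% to 56.1% of the span. The 3 other SGCZ summits had 7 reads and a fold of 3.90 each, with intervals that overlapped that of the strong summit.

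ROBO2 encodes a receptor for SLIT proteins, which repel growing axons. It is the longest of the 7 genes, at 1743 kb on chromosome 3 (75906675 to 77649964, plus strand), and held 6 summits spread over 1407 kb. Its strong peak from 75948526 to 75948625 had 12 reads (6.20 to 21.0) and a fold of 6.34, and lay at 2.40% of the span. That is 41.9 kb from the lower end of the gene, which is its 5′ end on the plus strand. The promoter windows include no start at that end, as the listed starts are at 76310880 and 77040099. The summit nearest to a listed start, at 77029058, had 7 reads and a fold of 3.90. The sixth summit, at 77355139, had 13 reads but a fold of 2.83, because its input background was 3.95. That was the highest input background among the 27 summits, and its peak, 246 bp, was the widest.

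CDH13 encodes T-cadherin, a cadherin anchored to the membrane by a lipid and lacking the usual intracellular part. It held the most summits, 7, on chromosome 16 within a span of 1174 kb (82626969 to 83800640). They ran from 13.7% to 57.0% of the span, and the remaining 504 kb up to the upper end had none. The strong peak from 83031190 to 83031262 had 12 reads (6.20 to 21.0) over an input background of 1.18, and a fold of 5.97. The other 6 had 6 to 8 reads. Of all 27 peaks only 2 lay over another annotated gene, the long noncoding RNA genes LOC101928446 and LOC101928417 inside CDH13, and neither peak was strong.

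ASTN2 encodes an astrotactin, a protein family involved in the migration of neurons along glial fibres. It spans 992 kb of chromosome 9 (116423112 to 117415057, minus strand) and held 3 summits. Its strong peak from 117045955 to 117046024 had 11 reads (5.49 to 19.7), a fold of 5.85 and a −log10 q of 5.09. This is the weakest of the 8 strong summits, and its interval overlapped those of the other ASTN2 summits, with 7 and 8 reads. The threshold fell between 10 and 11 reads at the lowest background: 9 genes of 300 kb or more had a strongest summit of 10 reads and fold 5.37 (−log10 q 4.12), among them GPC5 and CREB5, and 5, ASTN2 included, had 11 reads and fold 5.85.

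**Figure D2:**
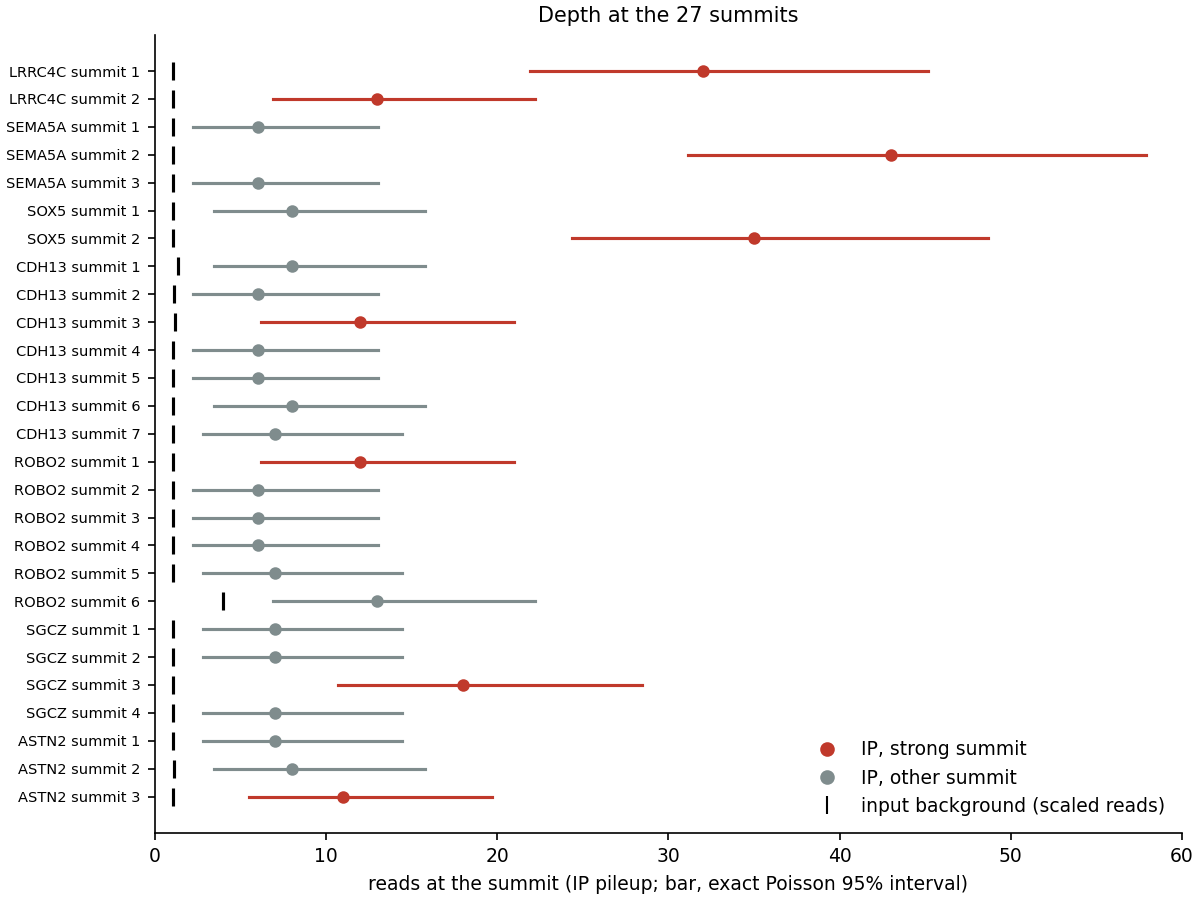
IP reads at each of the 27 summits, in reads on the x axis, with exact Poisson 95% intervals (red, strong; grey, others), and the input background as black ticks. The summits of SEMA5A, SOX5 and LRRC4C with 43, 35 and 32 reads have the highest counts. The intervals of the SEMA5A and SOX5 summits overlap none of the 19 summits that are not strong, and those of all 6 other strong summits overlap at least 1 of them. The reads helped to define the strong summits, so these overlaps are a description.

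The 27 summits differed more in IP reads than in input background. That background does not show the local input depth where it is at its genome-wide value. Strong summits had 11 to 43 reads (median 15.5) and the others 6 to 13 (median 7). The input background was at 1.05, its lowest value in the list and the genome-wide one, at 7 of 8 strong and 14 of 19 other summits. At that background the fold follows from the IP reads alone. Identical values recur for this reason: 7 of the 27 summits had 6 reads and a fold of 3.41, as had 870 arm summits (25.8%). Of the 27 summits, 18 had a q-value of 0.05 or less. Strong arm summits outside the 7 genes, 399 in number, had a median of 32 reads, a median fold of 6.14 and the lowest background in 27.6%. The long arm of chromosome 1 held 130 of these; without it the other 269 had a median of 22 reads, a median fold of 7.13 and the lowest background in 37.9%. In the other genes of 300 kb or more, 31 strong peaks had a median of 16 reads, a median fold of 7.44 and the lowest background in 61.3%, which is 19 of them. Depth and background helped to choose the strong peaks, so these differences were not tested.

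The strong peaks were narrow, and their distance to the nearest other summit varied widely. Their widths ran from 70 to 125 bp (median 91), close to the 83 bp median of strong peaks in other long genes. The 19 other peaks had a median of 69 bp, the same as the 2952 weaker arm peaks outside the genes. In 6 of the 8 strong peaks the summit lay near the middle, at 47.1% to 57.5% of the width; the exceptions were SOX5 (37.4%) and SGCZ (19.2%). The nearest other summit of any strength was 28.9 to 802.6 kb away (median 176 kb). This median was 141 kb for strong arm summits outside the genes and outside the long arm of chromosome 1, 4.97 kb with that arm, and 339 kb for strong summits in other long genes.

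The number of summits was then set against gene length. The arm density was 1.22 summits per Mb, which gives 9.73 summits over the 7.95 Mb of the 7 genes, and 27 were counted (ratio 2.77). For strong summits the density of 0.147 per Mb gives 1.17, and 8 were counted (ratio 6.82). The genes were chosen by these same peaks, so high ratios for strong summits, here and below, follow from that choice. The count of 27 includes the 8 strong summits, so its ratio follows from it in part. The ratios were not tested. CDH13 had 7 summits where 1.44 were expected, SEMA5A 3 against 0.625, ROBO2 6 against 2.13, SGCZ 4 against 1.41, and ASTN2 3 against 1.21. LRRC4C, with 2 against 1.65, and SOX5, with 2 against 1.26, were nearest to the number given by their length. Expected strong summits ran from 0.0753 in SEMA5A to 0.257 in ROBO2, so any gene with 1 strong summit exceeds its expectation. By number of summits CDH13 ranked 7 and ROBO2 9 among the 756 long genes, while 121 of them had as many as the 2 of LRRC4C or more. The highest counts were in CSMD3 (18), RALYL (17) and C8orf34 (12), all on chromosome 8. Counts and densities were not adjusted for copy number. The other 749 long genes together had 1.28 summits and 0.0763 strong summits per Mb. The ratios depended on the reference density. With the density inside protein-coding genes on arms they were 3.52 for all and 10.7 for strong summits. For strong summits the ratio was 8.65 with the density of each gene's own arm and 9.64 on arms without the long arm of chromosome 1. With the density of the whole primary chromosomes, which includes the peaks outside the arms, they were 0.471 and 0.473, in the opposite direction.

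The surroundings of the genes are given as a description, since the values inside the genes had chosen them and a contrast with the surroundings follows in part from that choice. Within 5 Mb on both sides of each gene, 70.0 Mb in all, there were 81 summits (1.16 per Mb) and 0 strong ones. A count of 0 allows up to 0.0429 strong summits per Mb (a 1-sided 95% limit of 3 counts over 70.0 Mb, counting error only). That limit takes summits as independent of each other, so a difference from the arms was not tested. The density of strong summits was 0.147 per Mb on all arms and 0.104 on arms without the long arm of chromosome 1. The nearest strong arm summit outside the gene was 5.55 Mb away for SEMA5A, 6.32 Mb for CDH13, 6.90 Mb for LRRC4C, 9.32 Mb for SGCZ, 17.6 Mb for SOX5, 19.9 Mb for ASTN2 and 22.5 Mb for ROBO2. Such surroundings are common: of the 32 other long genes with a strong summit, 21 also had none within 5 Mb. For all summits, the surroundings of SGCZ had 4 (0.400 per Mb, against 3.47 in the gene), those of CDH13 and SEMA5A 8 each (0.800, against 5.96 and 5.87). ROBO2 lay in a denser region, with 25 (2.50 per Mb, against 3.44 in the gene). The surroundings of LRRC4C, with 18 (1.80 per Mb), exceeded the gene itself, at 1.49 per Mb.

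**Figure D3:**
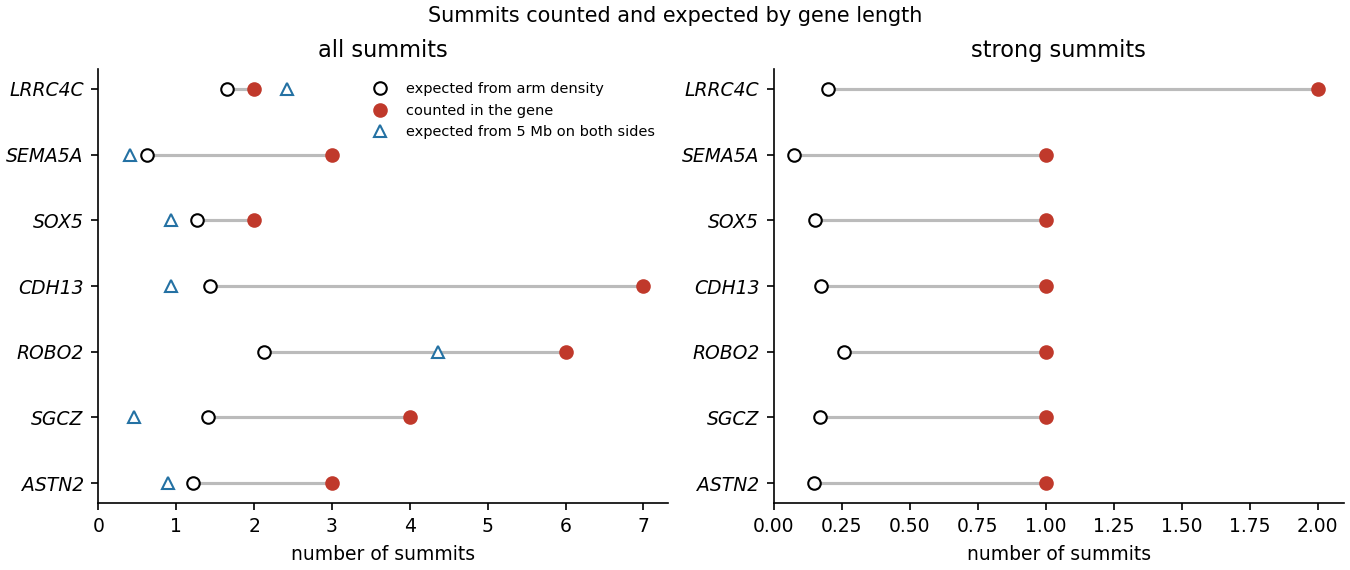
Number of summits counted in each gene (red) and expected from its length with the density on all arms (open circles) or within 5 Mb on both sides (triangles, left panel only), for all summits (left) and strong summits (right). CDH13 and ROBO2 have the most summits, 7 and 6, and LRRC4C lies below the number expected from its surroundings, 2.42.

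By the fold of its strongest summit SEMA5A ranked 1 of the 756 long genes, SOX5 4 and LRRC4C 5, followed by SGCZ (14), ROBO2 (27), CDH13 (34) and ASTN2 (35). The median of these 7 folds was 9.27, against 3.90 for the other long genes with a summit, whether strong or not. The 7 genes were chosen by fold and q-value, so this gap follows from that choice and was not tested. Strong summits in other long genes had a median fold of 7.44. The other long genes with the highest folds were RANBP2 and SH3RF3, which share a peak (fold 18.9, 99 reads, input background 4.28), MKLN1 and RABGAP1L (15.6, 31 reads each) and ULK4 (11.2, 28 reads). None of these 5 is a gene of axon guidance, so high peaks in long genes were not limited to that class.

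**Figure D4:**
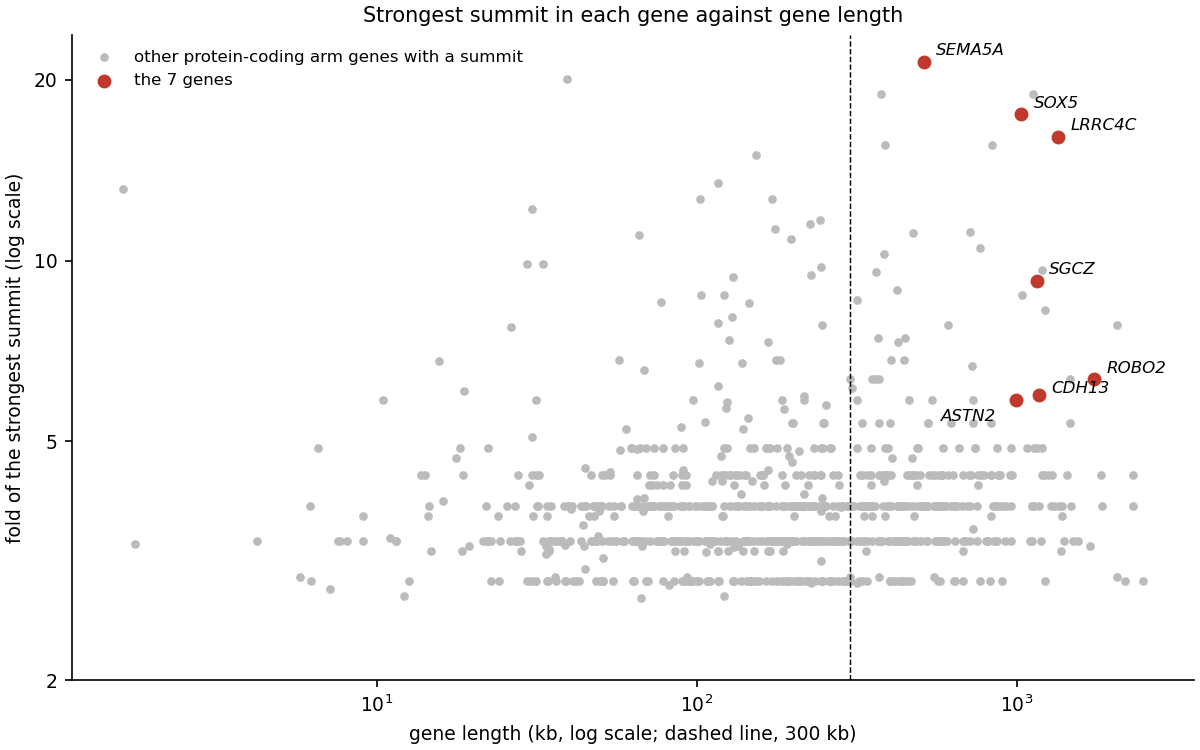
Fold of the strongest summit against gene length for protein-coding arm genes with a summit, both axes on a log scale. The 7 genes are red, and the horizontal bands of grey points are folds of peaks with few reads at the lowest background. SEMA5A, at 21.5, is the highest of all genes of 300 kb or more.

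Genes of the same families and of related neural functions were listed to see where else such peaks occur. Of 167 listed genes on arms outside the 7, 52 (31.1%) held a summit and 6 (3.59%) a strong one. Restricted to the 92 of 300 kb or more, 46 (50.0%) held a summit and 6 (6.52%, exact binomial 95% interval 2.43% to 13.7%) a strong one, beside 38.1% and 4.27% of all long genes without the 7. The lists were chosen with earlier results of these data known, and they leave out the 7 genes picked for strong peaks. The long genes set beside them include the listed ones. These shares are therefore a description, and a difference was not tested. The listed long genes were longer, with a median of 887 kb against 448 kb. The 6 included DCC, the netrin receptor (fold 9.65, 74 reads, input background 6.77), GRID1 (10.5, 26 reads), KCNIP4 (8.29), CSMD1 (7.81), CTNNA2 (6.34) and SGCD, the delta-sarcoglycan (8.78, 17 reads).

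Counts for the families of the 7 genes follow. They are small, and a strong summit is rare at any gene (0.473% of protein-coding arm genes, 4.27% of long genes without the 7), so nothing is read from its absence in a family. A summit of any strength was in 4.43% of protein-coding arm genes and 38.1% of long genes without the 7. The family shares were not adjusted for gene length, so nothing is read from them either. ROBO1, which encodes the other main neuronal SLIT receptor and spans 1171 kb, held 3 summits with a top fold of 3.90. Of the 9 SLIT, ROBO and srGAP genes outside the 7, it was the 1 with a summit (11.1%). SLIT3, SRGAP3 and SLIT2 had none. In the netrin and netrin-G group 3 of 14 (21.4%) had a summit, DCC, UNC5D and NEO1, the last 2 with 6 reads. DSCAM, UNC5C and NTNG1, which encodes the partner of LRRC4C, had none. Of 29 semaphorin, plexin and neuropilin genes 1 (3.45%), SEMA3C, had a summit (fold 3.41), and SEMA6D, SEMA3A and PLXNA4 had none. Of 22 cadherin genes 1 (4.55%), CDH12, had a summit (fold 3.41), and CDH18, CDH4 and CDH23 had none. SOX6 and SOX13, the other SOXD genes, had no summit, nor had ASTN1.

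In the sarcoglycan and dystrophin group 4 of 13 (30.8%) had a summit: SGCD, SNTG1 (fold 4.39), DTNA (3.41) and SNTB1 (3.41). DMD, the dystrophin gene, had none over its 2220 kb, nor had SNTG2 and DTNB. Of 25 contactin, neurexin and IgLON genes 11 had a summit and 0 a strong one. Of the 17 at 300 kb or more, 9 (52.9%) had a summit, beside 38.1% of long genes without the 7. The median length of these 17 was 896 kb, against 448 kb for the other long genes. The group was led by NCAM1 (fold 4.88), NCAM2, CNTNAP3 and NTM (4.39 each), while CNTN5, NLGN1 and CNTNAP5 had none. Of 52 other long synaptic and neural genes 31 had a summit and 4 a strong one. At 300 kb or more, 30 of 50 (60%) had a summit and 4 (8%, exact binomial 95% interval 2.22% to 19.2%) a strong one, beside 38.1% and 4.27%. These 50 had a median length of 1140 kb, against 448 kb. The shares are not adjusted for length, and a difference was not tested. LRP1B and DAB1, which are 1900 and 1552 kb long, had none. A gene without a summit may still hold binding that was not detectable at this depth, since the lowest listed arm summits at the lowest background had 5 reads.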

How the data were processed

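One IP and one input library of HCT116 were compared by the authors, who deposited a peak list on hg38. Tools listed in the submitters' processing notes are Bowtie2 (2.3.2), ChIPseeker (1.36.0), HOMER and MACS2 (2.1.0), without settings. The deposited fold is the ratio of IP pileup to input background at the summit, the deposited −log10 p and −log10 q are the peak caller's, and the deposited score is 10 times the −log10 p, cut to a whole number. Pileup and background were recovered from fold and p (fold as pileup plus 1 over background plus 1, p as the Poisson tail above the pileup), and a whole number matched within 0.001 on −log10 p in 100% of peaks. The recovery and the ratio by length were tested on simulated data. The depth of each library is not given in the sources.

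Gene spans came from RefSeq (GRCh38.p14; 718 rows on other sequences left out) and bands from circlize 0.4.16 (R 4.3.3). Expected numbers are length times summit density. Scripts ran in Python 3.11.15 with pandas 2.3.3, scipy 1.17.1, numpy 2.4.6 and matplotlib 3.10.9. Coordinates are 1-based. No test compares samples. The members and gene lists were chosen with earlier results of these data known. Named genes are the 7 with all summits, the 5 other long genes of highest fold, and from each list up to 4 with the highest fold and the 3 longest without a summit; 1 of these is not reported here. The alternatives varied the gene window (3 kb), overlap, q or fold threshold, density and members.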

Additional observations from a re-analysis of the deposited data

How the results depend on the processing

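Apart from leaving out a gene, 35 alternatives were run over 7 results, and 32 stayed within the counting interval of the reported value or within 1.5 times a count or width. The density of whole primary chromosomes brought the ratio of summits in the genes to 0.471 and that of strong summits to 0.473, as that density includes the peaks outside the arms. With strong defined as a −log10 q of 10 or more, 4 of the 7 genes kept a strong summit: SEMA5A, SOX5, LRRC4C and SGCZ. Leaving out each gene in turn gave ratios of 2.41 to 3.09 for all summits and 6.16 to 7.65 for strong ones. Densities within 5 Mb of the genes and on arms without the long arm of chromosome 1 were added after seeing the data. The former gave no ratio for strong summits, since none lay there. With q of 0.05 or less, 18 summits remained. No paired analysis was possible because there is 1 library in each group. The depth limits what can be said of the weaker summits, most of which rest on 6 to 8 reads.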

Other observations

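The 7 genes enclose 39 other annotated genes, 5 of them miRNA genes, and none of these 5 was close to a summit. MIR8058 in CDH13 was 98.7 kb from the nearest summit of its host, MIR383 in SGCZ 122 kb, MIR3182 in CDH13 212 kb, MIR920 in SOX5 219 kb and MIR4636 in SEMA5A 300.2 kb. TRIM32, a protein-coding gene nested in ASTN2 (116687305 to 116701299), held no summit.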
